A study of Homo sapiens with 8 samples.

Results

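The enzymes described here build and crosslink collagen, and 10 genes were taken by their symbols from the 47591 rows of the expression table. The symbols fix the members without a measured value, but the set was chosen with earlier results of these data known. They are the prolyl 4-hydroxylase alpha subunits P4HA1, P4HA2 and P4HA3, the lysyl hydroxylases PLOD1, PLOD2 and PLOD3, and the lysyl oxidases LOX, LOXL1, LOXL2 and LOXL3. All 10 symbols were found, each in a single row. The study used RNA-seq of polyadenylated RNA to compare SH-SY5Y cells, a human neuroblastoma (NB) line, with and without silencing of PRPF40B, a splicing factor. The G2 line received CRISPR/Cas9 with a guide against PRPF40B and the SCR line a scrambled control guide. Both were grown in puromycin, whereas WT cells were neither edited nor, per the methods, kept in the drug. There were 3 G2, 3 SCR and 2 WT libraries. G2 came from a colony isolated by limiting dilution, so its libraries describe a single edited line, and what the guide did and how that colony differed from the start cannot be told apart. The labels call the libraries biological replicates without saying what was repeated, so p-values measure the spread between these libraries only.

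Collagen chains are modified in the endoplasmic reticulum before they are secreted. Prolyl 4-hydroxylases turn proline into 4-hydroxyproline, which keeps the triple helix stable at body temperature, and lysyl hydroxylases make the hydroxylysine that carries sugars and takes part in crosslinks. Outside the cell, lysyl oxidases convert lysine and hydroxylysine of collagen and elastin to aldehydes that form the covalent bonds between fibers.

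G2 cells carried more RNA for most of these enzymes than either control line. Against SCR, 7 of the 10 rose (PLOD1, PLOD3, P4HA1, P4HA2, P4HA3, LOXL2 and LOXL3), LOX fell, and LOXL1 and PLOD2 were too low to test. Against WT, 5 rose (PLOD1, P4HA1, P4HA2, LOXL2 and LOXL3), LOX fell, PLOD3 and P4HA3 did not pass, and the same pair was not tested. The calls come from limma on log2(value + 1) and need both a 1.5-fold change and p of 0.05 or less, and a gene was tested if its mean over the 8 libraries reached 10. By that rule 26.9% of the 18947 genes tested were called in G2/SCR, 15.1% higher and 11.8% lower, and 29.9% were called in G2/WT, 17.7% higher and 12.2% lower. Asking for a Benjamini-Hochberg adjusted p of 0.05 or less left the same calls among the enzymes, and the share of all genes called was then 25.0% against SCR and 28.2% against WT. The median log2 fold change of the 8 tested enzymes was 1.26 against SCR (all genes tested, -0.01) and 1.24 against WT (all genes, 0.005). P4HA3 passed the filter through its G2 values, and the G2 libraries enter both comparisons, so the pair is not independent. For each of the 8 tested enzymes the 3 G2 values lay outside the range of the 5 control values, as they did for 42.5% of all genes tested. The plot of normalized counts by library shows all 10 genes.

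**Figure D1:**
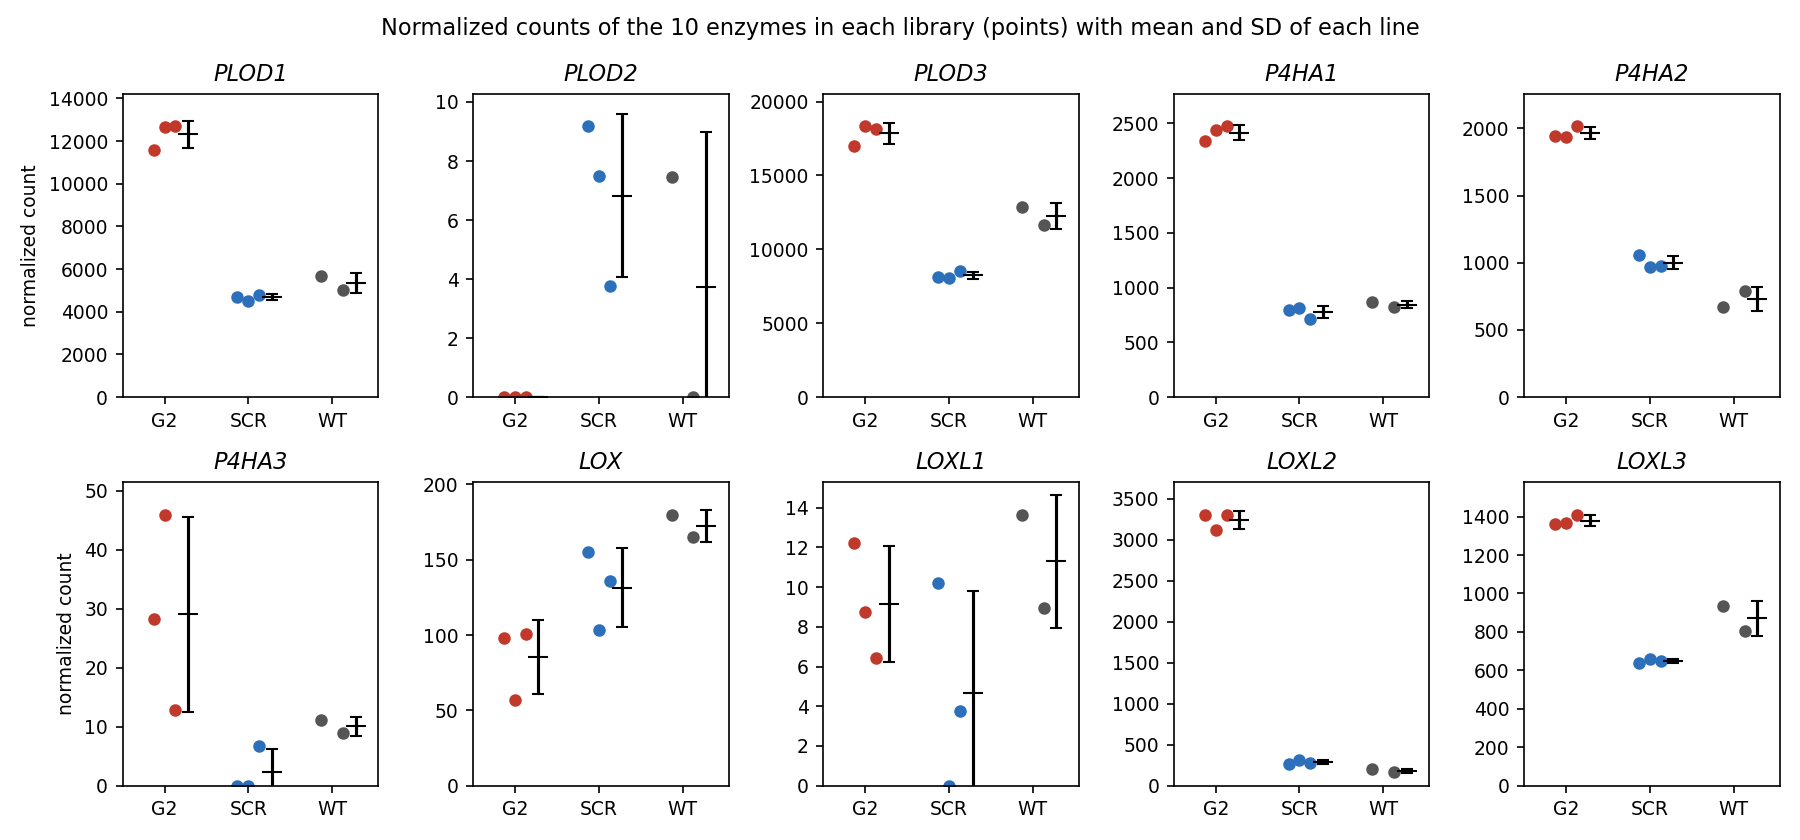
Normalized count (vertical axis, linear from 0, scaled per gene) of the 10 enzymes in each library of G2, SCR and WT. Points are libraries, and the bar beside them is the mean with its SD. PLOD1, PLOD3, P4HA1, P4HA2, LOXL2 and LOXL3 lie higher in every G2 library than in every control library, LOX lies lower, and PLOD2 is at 0 in the 3 G2 libraries.

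Depth ran from 19934798 to 27026916 fragments per library, taken as the recovered counts divided by 3. That division is an assumption and the depth approximate, since only 71.3% to 75.6% of small counts in a library were multiples of 3. PRPF40B itself stood at 866 ± 44.5 normalized counts in G2 (SD, n = 3), 1676 ± 8.79 in SCR (n = 3) and 1820 ± 215 in WT (n = 2), a log2 fold change of -0.95 against SCR and -1.07 against WT. Markers of cell types moved with the lines too. All 12 sympathetic neuroblast markers had a mean of at least 10, but 9 were called lower in G2 than in SCR and 8 lower than in WT, and 0 higher. Their summed normalized counts ran from 271019 to 275618 in G2, 377506 to 388069 in SCR and 337884 to 348498 in WT. STMN2 gave the largest part of this sum in each line. It averaged 165517 in G2, 170244 in SCR and 116782 in WT, unlike the markers that fell. TH, the first enzyme of catecholamine synthesis, was at the floor in G2 and low elsewhere, averaging 14.0 in SCR and 16.9 in WT. Of 8 fibroblast markers 7 were tested, TWIST2 being at the floor, and 4 were called higher in G2 (THY1, LUM, FAP and PRRX1), 1 lower (DPT), in either comparison, while PDGFRA and PDGFRB were not called. Their sum, most of it THY1, ran from 47952 to 48572 in G2, 22783 to 23223 in SCR and 24492 to 26133 in WT. PRRX1 averaged 30.5 in G2 and 0 in SCR and WT, so it passed the filter only through its G2 values. Fibroblasts make collagen enzymes as well. The part of these shifts in the values below was not tested, and in bulk RNA fewer cells of a type and less RNA per cell cannot be told apart. Sums of the other lists ran from 170 to 267 (G2), 387 to 595 (SCR) and 426 to 463 (WT) for 6 glial markers, 83.2 to 99.9, 26.5 to 52.1 and 34.8 to 54.6 for 5 endothelial, 34.8 to 51.6, 55.4 to 73.5 and 45.9 to 66.5 for 5 leukocyte, and 143 to 153, 150.02 to 160.5 and 102 to 150.2 for 4 epithelial markers. Among these, SOX10, FOXD3, PECAM1, PTPRC and CD3E were at the floor in every line, and S100B, the main contributor to the glial sum, was lower in G2. VWF, an endothelial marker at the floor in SCR and WT, averaged 32.4 ± 23.3 in G2 and passed the filter only through those values. The floor means no more than 9 recovered counts, about 3 fragments, in any library of a line.

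Several of these genes are known targets of the hypoxia-inducible factors, whose response elements hold the core ACGTG or GCGTG. The 250 bases upstream of the RefSeq start (GRCh38.p14) could be read for 8 of the 10 genes, the others being LOXL2 and P4HA3. Searched on both strands, LOX held 4 cores, PLOD2 3, PLOD1 2 and P4HA1 1, whereas LOXL1, LOXL3, PLOD3 and P4HA2 held 0. A single start was read for each gene. The windows of P4HA2 and PLOD3 lie inside the gene spans given below, so starts further upstream were not read. Either core occurred in 43.1% of 27305 promoters of this length. The GC box letters GGGCGG, found in 42.3% of them, occurred 4 times for PLOD1, 3 times for PLOD3 and once each for LOX and PLOD2. The 4 windows with a core are shown because their genes took different courses in G2: P4HA1 and PLOD1 rose, LOX fell and PLOD2 stayed at the floor. Capitals mark the cores on either strand (CACGT and CACGC are the same letters read from the other strand), and the sequences run 5′ to 3′ along the gene, at chr10:73096867-73097116 (minus strand) for P4HA1, chr1:11934467-11934716 (plus) for PLOD1, chr5:122078260-122078509 (minus) for LOX and chr3:146161185-146161434 (minus) for PLOD2. A match describes the letters and is not evidence of binding.

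P4HA1: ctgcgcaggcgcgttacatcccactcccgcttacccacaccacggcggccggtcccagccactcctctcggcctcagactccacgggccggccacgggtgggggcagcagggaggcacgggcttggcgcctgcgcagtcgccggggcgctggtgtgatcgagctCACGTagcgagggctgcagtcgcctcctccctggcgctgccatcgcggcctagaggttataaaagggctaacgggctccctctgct
PLOD1: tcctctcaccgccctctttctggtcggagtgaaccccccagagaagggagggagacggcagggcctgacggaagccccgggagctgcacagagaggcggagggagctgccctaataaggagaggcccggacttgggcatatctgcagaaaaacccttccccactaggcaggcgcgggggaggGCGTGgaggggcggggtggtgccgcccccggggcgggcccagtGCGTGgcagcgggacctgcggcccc
LOX: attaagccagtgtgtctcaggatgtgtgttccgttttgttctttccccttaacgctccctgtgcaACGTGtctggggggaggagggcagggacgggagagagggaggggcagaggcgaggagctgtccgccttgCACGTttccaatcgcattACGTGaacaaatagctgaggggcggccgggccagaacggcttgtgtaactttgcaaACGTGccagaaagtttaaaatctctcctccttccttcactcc
PLOD2: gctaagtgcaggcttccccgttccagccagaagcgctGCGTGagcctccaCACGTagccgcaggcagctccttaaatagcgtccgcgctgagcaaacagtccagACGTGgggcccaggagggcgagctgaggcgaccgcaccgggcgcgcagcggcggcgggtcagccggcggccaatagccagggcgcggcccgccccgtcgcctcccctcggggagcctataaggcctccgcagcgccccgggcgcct

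Prolyl 4-hydroxylase is a tetramer of 2 alpha and 2 beta subunits, and the alpha subunit carries the active site. P4HA1 (chromosome 10, 73007217 to 73096867, minus strand, hg38), the main alpha subunit of most cells, had normalized counts of 2338, 2435 and 2476 in G2, 799, 816 and 718 in SCR, and 867 and 824 in WT. The G2 libraries were the 3 highest and lay close together, and the SCR and WT ranges nearly met. G2 was 3.11-fold above SCR (log2 fold change 1.64, SE 0.07, limma with Benjamini-Hochberg adjusted p = 3.6e-09) and 2.86-fold above WT (1.51, SE 0.08, limma adjusted p = 2.1e-08). SCR and WT differed by a log2 fold change of -0.12 (95% confidence interval -0.30 to 0.06). Its promoter is the first of those printed above, with a single core.

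P4HA2 (chromosome 5, 132190147 to 132227856, minus strand), the alpha subunit known from cartilage and bone, read 1945, 1936 and 2018 in G2, 1056, 970 and 975 in SCR, and 670 and 793 in WT. The 3 lines did not overlap, and their order was G2, SCR, WT. It rose 1.97-fold over SCR (log2 fold change 0.97, SE 0.08, limma adjusted p = 7.3e-07) and 2.69-fold over WT (1.43, SE 0.09, limma adjusted p = 7.1e-08). SCR stood above WT by 0.45 (SE 0.09) on the log2 scale, under the fold required here, and by 0.73 with passing p when libraries were scaled to the same total over named genes.

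P4HA3 (chromosome 11, 74247506 to 74311654, minus strand), the third and least abundant alpha subunit, read 28.2, 46.0 and 12.9 in G2, 0, 0 and 6.80 in SCR, and 11.2 and 8.94 in WT. SCR and WT were both at the floor, and the lowest G2 library held 12 recovered counts, about 4 fragments. Set against the floor, G2 was at least 3.57-fold higher than SCR (limma adjusted p = 0.004 for the fitted log2 fold change of 3.75). P4HA3 passed the filter only through its G2 values, so this p is not support for the rise by itself. Against WT the bound was 2.89-fold and the test did not pass (limma, unadjusted p = 0.23, adjusted p = 0.31). SCR/WT met the call rule for P4HA3 on its fitted values (log2 fold change -2.47, limma, unadjusted p = 0.03, adjusted p = 0.076), but both lines were at the floor, so no fold is given. That call was lost without SCR replicate 1 or 2 (-1.98 each), WT replicate 1 (-2.32) or WT replicate 2 (-2.62).

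Per kilobase of merged exons, P4HA1 led the alpha subunits in every line. It made up 79.5% ± 0.33 of their summed normalized counts per kilobase in G2, 71.6% ± 1.56 in SCR and 78.5% ± 2.45 in WT, and P4HA2 most of the remainder (19.8%, 28.2% and 20.8%). The P4HA2 share in G2 lay within the range of the 5 control libraries (difference -5.46 percentage points, exact two-sided permutation test of 3 against 5 libraries, 56 groupings, p = 0.14). In SCR the order of P4HA1 and P4HA2 rests on the gene length: without dividing by length P4HA2 held 56.2% there. P4HA1 still led in G2 (54.8%) and WT (53.3%). Divided by the longest transcript, P4HA1 held 65.7% in G2, 55.3% in SCR and 64.4% in WT. The size of its lead depends on the length of P4HA2, 10128 merged bases against 4553 in the longest transcript. The summed alpha subunits reached 983 ± 24.8 normalized counts per kilobase in G2, 351 ± 18.0 in SCR and 348 ± 1.56 in WT, ratios of 2.80 and 2.82. The beta subunit P4HB, also known as protein disulfide isomerase and shared with other enzymes, reached 4027, 1888 and 2679 on the same scale, ratios of 2.13 and 1.503. P4HB was called in both comparisons (log2 fold change 1.09 and 0.59, limma adjusted p = 3.7e-09 and 2.6e-06), the second just above the fold required.

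Among the lysyl hydroxylases, PLOD1 and PLOD3 were abundant and rose, while PLOD2 was nearly absent. PLOD1 (chromosome 1, 11934717 to 11975537, plus strand), which acts on lysines of the triple helix, read 11578, 12677 and 12702 in G2, 4702, 4523 and 4807 in SCR, and 5672 and 5028 in WT. Every G2 value was more than any control value by a wide margin, and WT lay just above SCR. G2 was 2.63-fold above SCR (log2 fold change 1.40, SE 0.06, limma adjusted p = 3.7e-09) and 2.30-fold above WT (1.20, SE 0.07, limma adjusted p = 4.1e-08). Its promoter window, printed above, holds both a pair of GCGTG cores and 4 GC boxes.

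PLOD3 (chromosome 7, 101205978 to 101217994, minus strand), which also adds galactose and glucose to hydroxylysine, read 17020, 18341 and 18153 in G2, 8129, 8063 and 8528 in SCR, and 12863 and 11628 in WT. The lines did not overlap, and WT stood between the others. G2 was 2.16-fold above SCR (log2 fold change 1.11, SE 0.06, limma adjusted p = 1.1e-08). Against WT the ratio was 1.46, a log2 difference of 0.54 (95% confidence interval 0.41 to 0.68, limma adjusted p = 1.7e-05) that fell short of the required fold. It passed at 0.73 with libraries scaled to the same total and at 0.62 without WT replicate 1. SCR/WT gave -0.57, short of the fold, and passed at -0.59 with the replicate number as a block, at -0.60 without SCR replicate 3 and at -0.64 without WT replicate 2, whereas scaling to the same total brought it to -0.30.

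PLOD2 (chromosome 3, 146069437 to 146161184, minus strand), which hydroxylates the lysines of the telopeptides at the chain ends and so directs the crosslinks typical of bone and scar, was at 0 in all 3 G2 libraries. It read 9.19, 7.51 and 3.78 in SCR and 7.45 and 0 in WT. All of these are at the floor, which in the G2 libraries corresponds to 8.47 to 9.85 normalized counts, so no fold is given. With no filter on low values PLOD2 met the call rule as lower in G2 than in SCR (fitted log2 fold change -2.90, limma adjusted p = 0.015), a difference between 0 counts and at most 9 in a library. PLOD2 made up 0% of the summed lysyl hydroxylase counts per kilobase in G2 and 0.015% on average in the controls (exact two-sided permutation test, p = 0.14). Within the family, PLOD3 held 57.6% ± 0.35 in G2, 62.3% ± 0.39 in SCR and 68.2% ± 0.31 in WT, with PLOD1 making up nearly all of the rest. The sum reached 5461 ± 246, 2333 ± 68.8 and 3165 ± 240 normalized counts per kilobase.

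The lysyl oxidases moved in opposite directions. LOXL2 (chromosome 8, 23296639 to 23404151, minus strand), a secreted oxidase of collagen IV with a nuclear role described too, read 3309, 3122 and 3310 in G2, 267, 313 and 278 in SCR, and 199 and 165 in WT. Every G2 library stood far above every control library, and SCR above WT. G2 was 11.4-fold above SCR (log2 fold change 3.50, SE 0.10, limma adjusted p = 7.2e-11), and 1.19% of all genes tested had a higher value. Against WT it was 17.9-fold (4.16, SE 0.11, limma adjusted p = 4.4e-11). SCR was itself above WT, by 0.65 (SE 0.11, limma adjusted p = 0.00067), and this call was lost without WT replicate 2 (0.52). LOXL2 shares 120 exonic bases on the same strand with ENTPD4, whose own log2 fold changes were 0.35 and 0.58, neither called.

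LOXL3 (chromosome 2, 74532258 to 74553961, minus strand), an oxidase needed for cartilage and palate collagen, read 1360, 1369 and 1411 in G2, 640, 659 and 650 in SCR, and 936 and 804 in WT. The lines did not overlap, with WT again between the others. G2 was 2.12-fold above SCR (log2 fold change 1.09, SE 0.08, limma adjusted p = 2.2e-07) and 1.59-fold above WT (0.67, SE 0.09, limma adjusted p = 4.1e-05), the latter 0.56 and not called without WT replicate 2. LOXL3 shares 20.7% of its exonic bases with HTRA2 and 4.78% with DOK1, both on the other strand, and the strand setting of the counting is not given in the sources used here. HTRA2 stood at -0.20 and -0.16 and DOK1 at 0.54 and 0.15 in the 2 comparisons, none of them called.

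LOX (chromosome 5, 122063195 to 122078287, minus strand), the founding member and the main oxidase of fibrillar collagen and elastin, read 97.9, 56.9 and 101 in G2, 155, 103 and 136 in SCR, and 180 and 165 in WT. G2 was lowest and WT highest, without overlap, although the highest G2 and the lowest SCR library nearly met. LOX fell by 0.64 on the log2 scale against SCR (SE 0.23, limma adjusted p = 0.037) and by 1.05 against WT (SE 0.26, limma adjusted p = 0.0047), ratios of 0.649 and 0.495. The first call was lost without G2 replicate 2 (-0.38), SCR replicate 1 (-0.52) or SCR replicate 3 (-0.61, just short on its p). SCR and WT differed by -0.41 (95% confidence interval -0.97 to 0.16). The 4 cores of its promoter are the most of the 8 windows read.

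LOXL1 (chromosome 15, 73926458 to 73952136, plus strand), which acts mainly on elastin, read 12.2, 8.76 and 6.45 in G2, 10.2, 0 and 3.78 in SCR, and 13.7 and 8.94 in WT. The lines overlapped, the highest library held 13 recovered counts, and the mean missed the filter, so the gene was not tested. LOXL4, the fifth member of the family and not among the 10 genes, averaged 48.1 ± 11.8, 59.9 ± 16.2 and 67.3 ± 21.4 normalized counts and was not called (log2 fold change -0.30 and -0.47, limma adjusted p = 0.42 and 0.25).

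The makeup of the lysyl oxidase family was read as shares. Per kilobase, LOXL2 held 61.7% ± 0.64 of the 5 genes' summed normalized counts in G2, 20.5% ± 2.09 in SCR and 11.0% ± 0.59 in WT, and LOXL3 held 34.7%, 61.7% and 69.8%. LOX held 1.97%, 1.19% and 2.02% in the G2 libraries, 11.8%, 8.09% and 10.3% in SCR, and 11.1% and 11.3% in WT. Every G2 share of LOX was below every control share, a mean difference of -8.79 percentage points (exact two-sided permutation test of 3 against 5 libraries, p = 0.036, the smallest this design allows). Adjusted over the 3 shares tested, the permutation p was 0.11 and did not pass. The share of LOX also falls when LOXL2 rises in the sum, so it is no separate measure of LOX, whose own ratio to SCR was 0.649. The summed family reached 879 ± 22.0 normalized counts per kilobase in G2, 233 ± 4.35 in SCR and 276 ± 21.5 in WT, ratios of 3.77 and 3.19. The plot of family composition shows these shares.

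**Figure D2:**
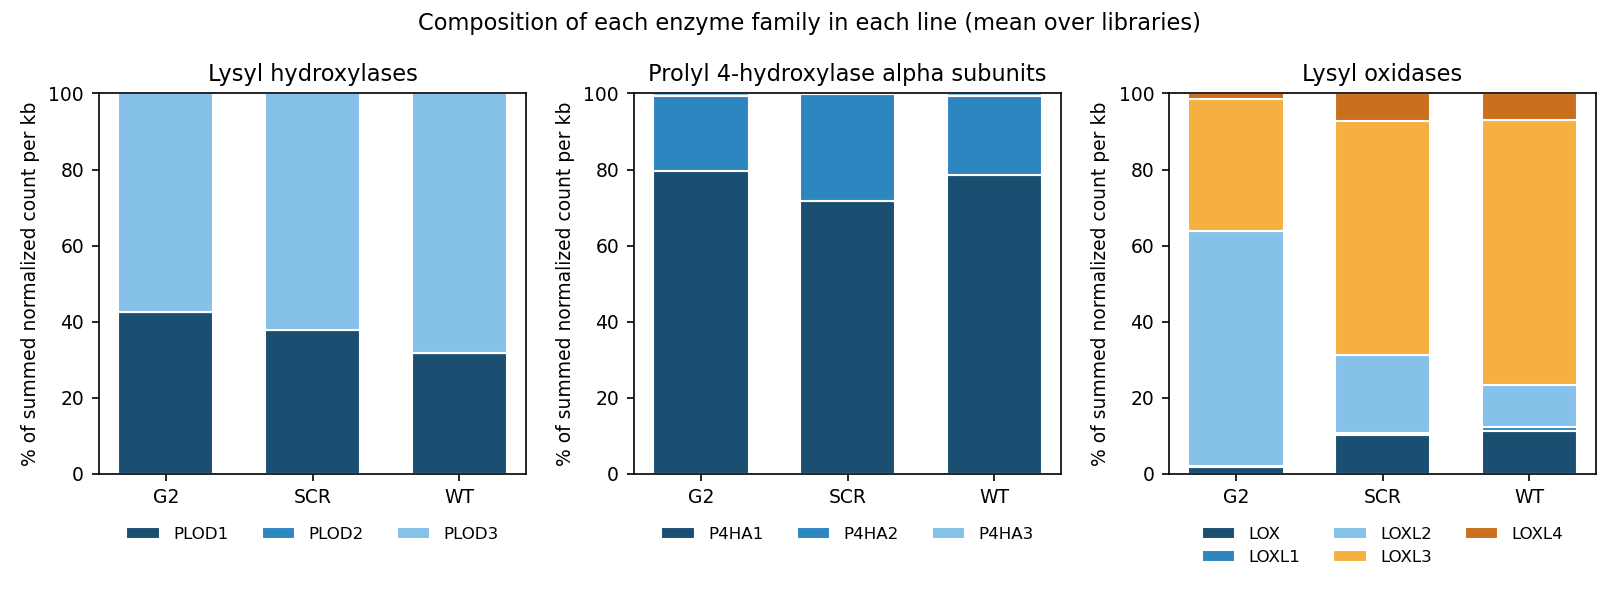
Share (vertical axis, % of the family's summed normalized counts per kilobase of merged exons, mean over the libraries of a line) of each gene in the lysyl hydroxylases, the prolyl 4-hydroxylase alpha subunits and the lysyl oxidases with LOXL4, in G2, SCR and WT. LOXL2 holds 61.7% in G2, 20.5% in SCR and 11.0% in WT, whereas PLOD2 is too small to see in any line.

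For 6 of the 8 tested enzymes the fitted difference between the 2 control lines was smaller in size than either difference from G2, the exceptions being PLOD3 and P4HA3. The share of all genes with this order was not computed, so the count is not read as particular to these enzymes. In SCR/WT, where 16.3% of all genes tested were called (10.7% higher and 5.63% lower in SCR), LOXL2 was called higher and P4HA3 lower, 6 were not called, and the median was -0.30. With the adjusted p in limma, by which 13.8% of all genes were called, LOXL2 was the only one of the 8. LOXL3 (-0.42), PLOD3 (-0.57), PLOD1 (-0.19) and P4HA2 (0.45) had 95% confidence intervals that did not include 0, although their folds were below 1.5. With libraries scaled to the same total PLOD1 turned to 0.081 and P4HA1 from -0.12 to 0.15, so neither has a firm direction here, and LOXL3 came to -0.15 with an interval that included 0. The plot of fold changes sets the 3 comparisons side by side.

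**Figure D3:**
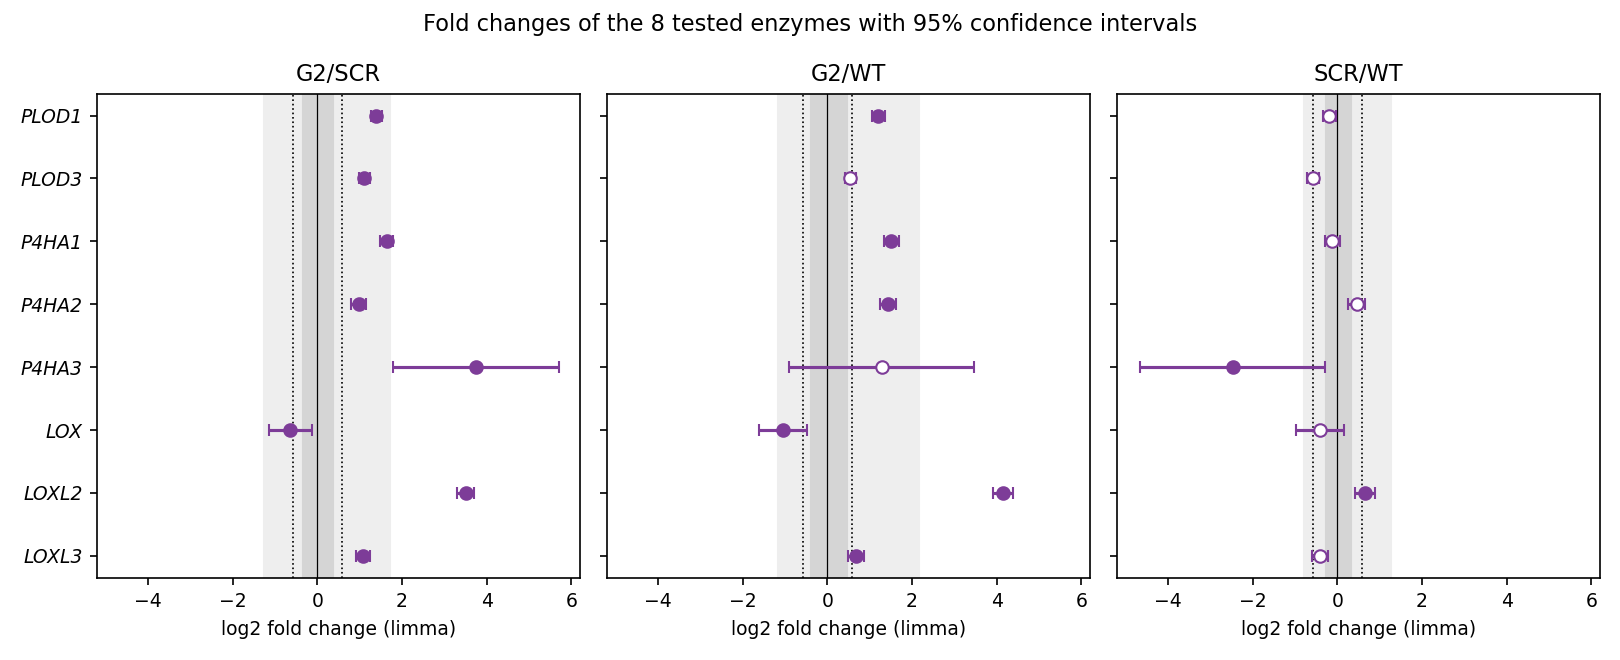
Log2 fold change from limma (horizontal axis) of the 8 tested enzymes in G2/SCR, G2/WT and SCR/WT, with 95% confidence intervals. Filled points were called and open points were not, dark and light bands span the middle 50% and 90% of all genes tested, and dotted lines mark a 1.5-fold change. LOXL2 lies at 3.50 and 4.16 in the G2 comparisons and LOX at -0.64 and -1.05.

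Genes that work next to these enzymes were read from lists. Of 17 other collagen-modifying enzymes and chaperones, 16 were in the table under the symbols used and all were tested. In G2/SCR 12 rose, 0 fell and 4 did not pass, with a median of 1.00, where 15.1% of all genes rose and 11.8% fell. In G2/WT 12 rose (11 with the replicate number as a block) and 0 fell, with a median of 0.75, where 17.7% of all genes rose and 12.2% fell. P3H2, among the 12 in both, averaged 45.0 in G2, 10.7 in SCR and 2.48 in WT. It passed the filter only through its G2 values. P3H1 and CRTAP, which with PPIB form the prolyl 3-hydroxylation complex, had log2 fold changes of 1.43 and 1.37 against SCR and 1.42 and 0.81 against WT. PPIB, the prolyl isomerase of the complex, rose by 1.17 and 0.61. The 4 not called in either comparison were LOXL4, COLGALT2, a collagen galactosyltransferase, TMEM38B, an endoplasmic reticulum cation channel, and MIA3, a cargo receptor for procollagen export, named here after their values were seen.

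Of 13 genes of procollagen processing and lysyl oxidase maturation, 9 were tested. In G2/SCR 5 rose, 1 fell and 3 did not pass (median 1.10, all genes 15.1% and 11.8%), and in G2/WT 4 rose and 1 fell (median 0.52, all genes 17.7% and 12.2%). BMP1, the protease that cleaves the C-propeptide of procollagen and the propeptide of LOX, rose by 1.44 against SCR and 1.47 against WT. EFEMP2 (fibulin-4), which brings LOX to elastin, rose by 2.54 and 1.92, and ADAMTS3, a procollagen N-proteinase, by 2.61 and 3.69. PCOLCE, an enhancer of BMP1, rose by 1.09 against SCR, and its value against WT was 0.39, not called. The gene that fell was ADAMTS14, another N-proteinase (-2.65 and -1.49), named after its value was seen.

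Of the 12 fibrillar collagen and elastin genes, the substrates of these enzymes, 9 were tested. In G2/SCR 6 rose, 0 fell and 3 did not pass (median 0.77, all genes 15.1% and 11.8%), and in G2/WT 7 rose and 1 fell (median 1.53, all genes 17.7% and 12.2%). With the adjusted p 6 rose and 1 fell in G2/WT, and with the replicate number as a block 7 were called in all. COL3A1 and COL5A1, chains of collagens III and V, rose by 3.61 and 3.39 against SCR and by 7.33 and 5.65 against WT. COL1A1, a chain of collagen I, rose by 2.60 and 2.86. ELN, which encodes elastin, rose by 0.68 against SCR, and its value against WT was -0.48, not called. The 2 control lines differed in these genes as well. In SCR/WT 4 were called higher in SCR, 1 lower and 4 not (median 0.54, all genes 10.7% and 5.63%). COL3A1 averaged 3348 normalized counts in SCR and 253 in WT, and COL5A1 1122 and 234.

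Other hydroxylases share the chemistry of the prolyl 4-hydroxylases but sense oxygen. Of 5 such genes 4 were tested, and EGLN1, the main hydroxylase of the hypoxia-inducible factors, was the only one called (log2 fold change 1.34 against SCR and 1.65 against WT, limma adjusted p = 1.8e-09 and 9.1e-10). That count is near the 26.9% and 29.9% of all genes called. Of 15 hypoxia-inducible genes, chosen without any of the 10 enzymes, 14 were tested. In G2/SCR 0 rose and 4 fell, namely MXI1 (-1.002), SLC2A1 (-0.87), ADM (-1.56) and PDK1 (-0.63), with a median of 0.05. Of all genes tested 15.1% rose and 11.8% fell, 26.9% in all, and the 4 of 14 are near that total only when direction is left aside. The highest of the 14 stood at 0.584, just short of the fold required. In G2/WT 1 rose and 3 fell, with a median of -0.17 (all genes 17.7% and 12.2%). That last median was 0.01, with 5 called higher and 2 lower, when libraries were scaled to the same total. SLC2A1 imports glucose, PDK1 restrains pyruvate oxidation, ADM is a vasodilator peptide and MXI1 a repressor related to MYC antagonists. The plot of pathway fold changes places the lists under the enzymes.

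**Figure D4:**
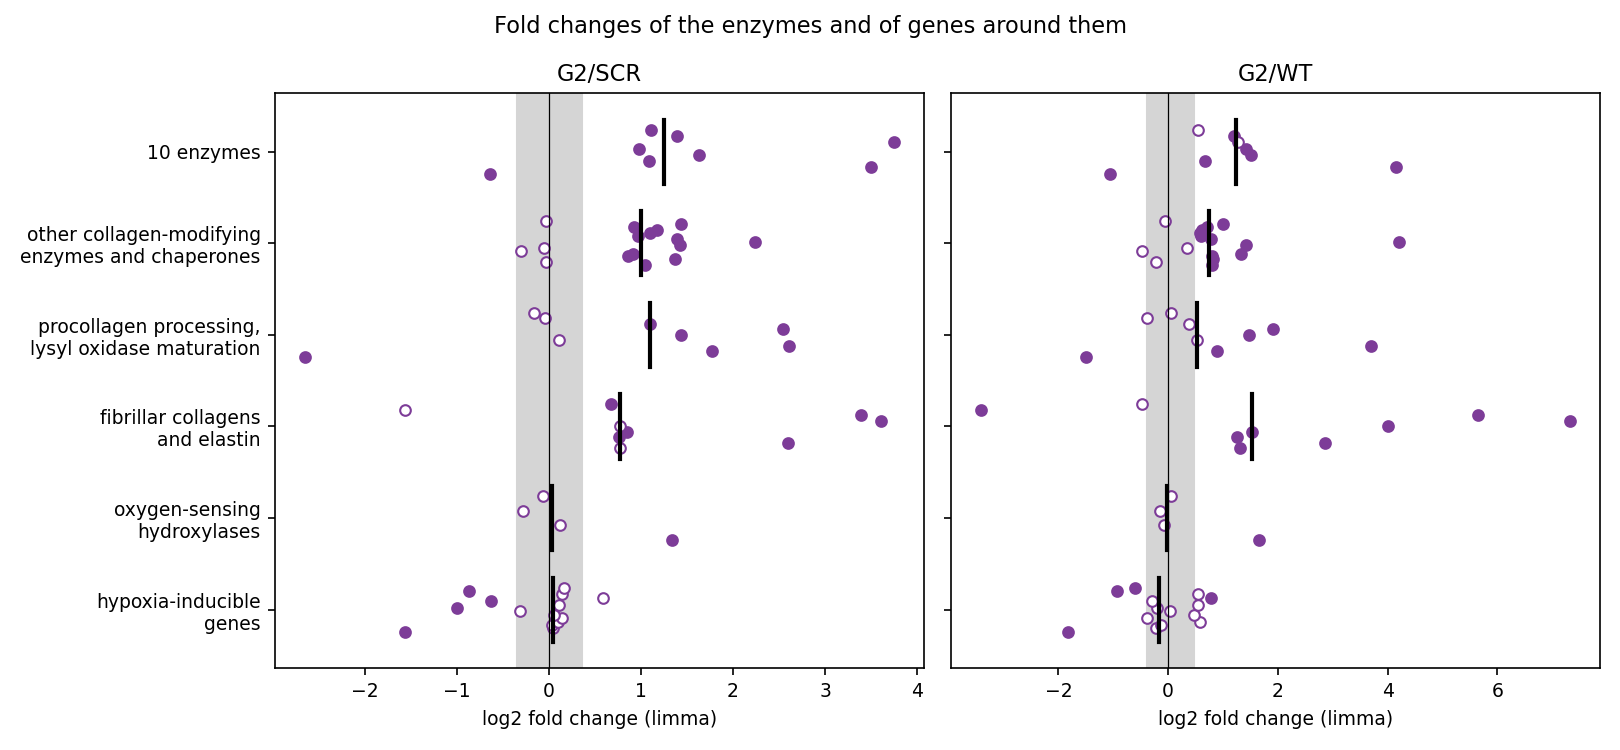
Log2 fold change from limma (horizontal axis) of each tested gene of the 10 enzymes and of the 5 lists around them, in G2/SCR and G2/WT, which share the G2 libraries. Filled points were called, open points were not, black bars are list medians and the gray band spans the middle 50% of all genes tested. The medians of the first 3 rows in G2/SCR are 1.26, 1.00 and 1.10, while those of the last 2 rows are 0.03 and 0.05.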

How the data were processed

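RNA-seq was made from 8 SH-SY5Y libraries, 3 G2, 3 SCR and 2 WT, grouped by their labels. The authors mapped paired reads to hg38 with STAR 2.7.5a, counted them with featureCounts (Subread 1.5.0) on FAST DB and normalized them with DESeq2. The deposited signal is therefore a normalized count per gene and library, not scaled to length and not logged. How multi-mapped reads were counted is not given in the sources used here.

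Each value divided by its library's step (0.756 to 1.24) was whole within 0.05 for 100.0% of values, which recovered counts of 59804395 to 81080747 per library. The step of WT replicate 2 is too near 1 to check this. Small counts were mostly multiples of 3, hence the floor of 9, and floors cover counting error only. The confidence intervals come from the limma fit and, like its p-values, measure the spread between these libraries only. The edgeR 4.0.16 and DESeq2 1.42.0 models were run on recovered counts as alternatives for G2/SCR.

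The main fit was limma 3.58.1 in R 4.3.3 (trend on the mean) on log2(value + 1), so fold changes of low genes depend on the pseudocount, with all 8 libraries, a mean per line, and 18947 genes with a mean of at least 10. It was tested on simulated data first. Adjusted p-values are Benjamini-Hochberg over all genes tested. Shares used merged GENCODE exon lengths and exact permutation tests in scipy 1.17.1.

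The 10 enzymes and the lists around them were chosen with earlier results of these data known. Named genes are the 10 enzymes, PRPF40B, the 4 genes per list that were called in G2/SCR with the lowest p, and the 3 genes whose profile is most like that of LOXL2. The labels carry replicate numbers, but libraries with the same number there did not deviate together. The library names carry different numbers, which were not used as a block. Alternatives covered scaling, pseudocount, filter, trend, block, threshold, gene length and each library left out.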

Additional observations from a re-analysis of the deposited data

How the results depend on the processing

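The directions of the 8 tested enzymes in G2/SCR and G2/WT were the same under every alternative run, with 6 to 9 of the 10 called in G2/SCR and 5 to 7 in G2/WT. In SCR/WT the count of 2 became 1 with a pseudocount of 10, a mean of at least 100, only the lines compared, an adjusted p of at most 0.05 or a fold change of at least 2, and ran from 1 to 3 with a library left out. Scaling to the same total over named genes shifted the median of all genes from -0.01 to -0.10 in G2/SCR, from 0.005 to 0.19 in G2/WT and from 0.01 to 0.28 in SCR/WT. Under it PLOD1 (0.081) and P4HA1 (0.15) reversed in SCR/WT, hypoxia-inducible genes called came to 7 in G2/WT and 7 in SCR/WT, from 4 and 2, and procollagen processing genes called in SCR/WT to 3, from 5. At an adjusted p, other collagen-modifying genes called in SCR/WT were 1, from 2. The LOX share difference ran from -9.39 to -8.47 percentage points with a library left out, where the smaller designs cannot reach p of 0.05. Beyond the constructions named, the cause was not tested.

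By the replicate numbers of the labels, same-numbered libraries correlated by -0.032 to 0.042 in their deviations from line means (7 pairs). Others correlated by -0.035 to 0.046, so those numbers give no pairing. The library names carry different numbers, by which G2 replicate 2 and SCR replicate 1 share a number. That pair had the highest correlation of all (0.046). The other pairs that share a library-name number also share one in the labels. They correlated by 0.042 (G2 and SCR replicate 3), 0.010 (SCR and WT replicate 2) and -0.032 (G2 and WT replicate 1). A block by library names was not tested. With the replicate number as a block, all genes called came to 5059 in G2/SCR, 5644 in G2/WT and 3057 in SCR/WT, from 5088, 5657 and 3097, and enzymes called to 8, 6 and 3, from 8, 6 and 2, with PLOD3 (-0.59) added in SCR/WT.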

Other observations

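The 3 genes whose profile over the 8 libraries was most like that of LOXL2, among 12581 with a mean of at least 100, were TNFRSF12A, VTN and PTPN3, with root mean square differences of 0.14, 0.15 and 0.16 on the log2 scale after centering. TNFRSF12A, the receptor of the cytokine TWEAK, averaged 12888 ± 916 normalized counts in G2 (SD, n = 3), 1033 ± 59.8 in SCR (n = 3) and 680 ± 143 in WT (n = 2). VTN, which encodes the adhesion protein vitronectin, averaged 897 ± 55.7, 81.8 ± 13.4 and 44.8 ± 1.59. PTPN3, a tyrosine phosphatase, averaged 826 ± 21.0, 83.4 ± 11.9 and 43.8 ± 3.00. All 3 keep the order G2, SCR, WT, as LOXL2 does. They were picked for this likeness, so it is a description.

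Genes next to the enzymes on the chromosome were also read, as values chosen after the fold changes were known. The 40 nearest genes with a mean of at least 100 around each of the 10 enzymes had median log2 fold changes between -0.15 and 0.21 in G2/SCR and between -0.20 and 0.19 in G2/WT. For LOXL2 these medians were 0.12 and 0.19, beside its own 3.50 and 4.16.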
